A study of Mus musculus with 47 samples.

Results

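The genes described here are 10 core genes of macroautophagy and of the LC3 family in brain RNA of 3xTg mice fed diets low in a single branched-chain amino acid. They were taken by symbol and Ensembl identifier from a table of 55416 genes: Ulk1, Ulk2, Becn1, Atg9a, Map1lc3a, Map1lc3b, Gabarap, Gabarapl1, Gabarapl2 and Sqstm1. All 10 passed the filter on low counts in both sexes, with expected counts from 821 to 11131 per library. 3xTg mice carry human transgenes with familial mutations of APP and tau together with a mutant presenilin, and develop amyloid and tau pathology. Every group had this genotype, the Control-fed mice included. Mice were placed at 6 months of age on an amino acid-defined Control diet or on 1 of 3 restricted diets, IleR (low in isoleucine), LeuR (low in leucine) and ValR (low in valine), and brains were collected after 9 months. The count tables held 14 libraries from males (4 Control, 3 IleR, 3 LeuR and 4 ValR) and 23 from females (6 Control, 5 IleR, 6 LeuR and 6 ValR). The labels list 10 further male samples, which the male count table does not hold and which were not analysed here. The study's methods say that outliers on a principal component plot were dropped, but not whether these 10 were among them. Dropping samples in that way can narrow the spread within the male groups. Total expected counts ran from 12682700 to 25722300 in males and from 10672600 to 21371000 in females. Each library is called by its diet and its label number. The study counts its replicates as mice, but the labels do not tie each library to a separate mouse, so the p-values measure the spread between these libraries.

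Macroautophagy encloses cytoplasm in a double membrane and delivers it to the lysosome. The kinases Ulk1 and Ulk2 start it, Beclin 1 (Becn1) is a core subunit of the class III PI3 kinase complex that marks the site with its lipid, and Atg9a, a lipid scramblase on small vesicles, seeds the growing membrane. Proteins of the LC3 group (Map1lc3a, Map1lc3b) and of the GABARAP group (Gabarap, Gabarapl1, Gabarapl2) are then joined to the lipid of that membrane, where receptors such as p62 (Sqstm1) bring cargo to them. In neurons the pathway clears proteins and organelles along the axon, and mTORC1, which senses amino acids, holds it back by phosphorylating the ULK kinases. Messenger RNA levels of these genes do not measure how much cargo reaches the lysosome.

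The gene positions are those of the GENCODE M21 annotation of GRCm38, the build named by the labels, and all 10 genes are annotated as protein coding. The kinases are Ulk1 (ENSMUSG00000029512, chr5:110784488-110810097, minus strand) and Ulk2 (ENSMUSG00000004798, chr11:61775649-61855073, minus strand). The membrane genes are Becn1 (ENSMUSG00000035086, chr11:101285952-101302286, minus strand) and Atg9a (ENSMUSG00000033124, chr1:75180860-75192196, minus strand). The LC3 pair is Map1lc3a (ENSMUSG00000027602, chr2:155276297-155278073, plus strand) and Map1lc3b (ENSMUSG00000031812, chr8:121590361-121598760, plus strand). The GABARAP group is Gabarap (ENSMUSG00000018567, chr11:69991143-69994951, plus strand), Gabarapl1 (ENSMUSG00000030161, chr6:129533160-129542346, plus strand) and Gabarapl2 (ENSMUSG00000031950, chr8:111940703-111953612, plus strand). The receptor is Sqstm1 (ENSMUSG00000015837, chr11:50199366-50210827, minus strand). No stretch of 50 bases was shared between transcripts of any 2 of the 10 genes, so reads of the paralogues can be told apart over that length. Transcripts of other genes held 30.2% of the 50-base words of Atg9a, 12.2% of those of Gabarapl2 and 5.77% of those of Map1lc3b. Their counts were fractional in 25, 28 and 37 of the 37 libraries, and the split of those reads is uncertain. The main sharer of Atg9a, the overlapping transcript Gm29253, was assigned at most 22.02 counts in a library, and the Gabarapl2 copies Gm3724 and Gm6051 at most 4.80 and 5.86. Annotated genes also overlap Becn1, Atg9a, Map1lc3b, Gabarapl1 and Sqstm1, some on the opposite strand, and how strand entered the counting is not given in the sources used here.

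Gabarapl1 and Gabarapl2, and likewise Ulk1 and Ulk2, are paralogues whose levels moved in opposite directions in IleR-fed and ValR-fed males, so the sequence just before the start of each of these 4 genes is shown. It was taken from RefSeq on GRCm38.p6 and is given as 120 bases read 5′ to 3′ on the strand of the gene. Each stretch ends 1 base before the earlier of the RefSeq and GENCODE starts. Capitals mark the 8 letters GGGCGGGG on either strand, the core of a GC box bound by Sp family factors.
Gabarapl1, chr6:129533040-129533159, plus strand: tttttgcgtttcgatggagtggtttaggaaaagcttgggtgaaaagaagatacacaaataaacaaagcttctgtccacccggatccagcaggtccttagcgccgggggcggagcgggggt
Gabarapl2, chr8:111940583-111940702, plus strand: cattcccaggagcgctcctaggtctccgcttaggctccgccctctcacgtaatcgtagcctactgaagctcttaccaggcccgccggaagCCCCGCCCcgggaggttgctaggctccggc
Ulk1, chr5:110810098-110810217, minus strand: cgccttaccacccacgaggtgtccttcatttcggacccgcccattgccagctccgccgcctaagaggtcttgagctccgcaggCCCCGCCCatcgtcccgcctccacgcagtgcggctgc
Ulk2, chr11:61855093-61855212, minus strand: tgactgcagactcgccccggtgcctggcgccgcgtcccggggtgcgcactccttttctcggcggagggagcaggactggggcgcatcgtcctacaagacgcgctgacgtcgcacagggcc

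RefSeq windows of 250 bases before to 50 after the start were at hand for 8 of the 10 genes (not Map1lc3a or Becn1). GGGCGGGG occurred in those of Ulk1 (3 matches), Gabarapl2 (1) and Sqstm1 (1), and in 17.6% of 32851 windows of all genes. The E-box CACGTG, the CLEAR palindrome of lysosomal genes (the E-box with GT before it and AC after it), the cyclic AMP response element TGACGTCA and the FOXO core GTAAACA occurred in none of the 8. They were found on either strand in 7.15%, 0.326%, 1.79% and 3.65% of all windows, and a match to the palindrome is also one to the E-box. Of the 8, CCAAT occurred in the window of Atg9a (3 matches) and of no other, and in 37.4% of all windows. G and C made up 46.3% of the Gabarapl1 window and 74.7% of that of Ulk2, against a median of 52.7% over all windows. These matches describe letters in a window, and a missing match says nothing of the factor.

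The libraries did not hold the same brain regions, and this moved with diet in males. Summed over 12 genes of cerebellar neurons, such as Gabra6 and Cbln1, Control-fed males had 52.0 to 120.5 counts per 1000000 (CPM), IleR-fed males 1540.0 to 4099, LeuR-fed males 257 to 1604 and ValR-fed males 1645 to 5236. Summed over 17 forebrain genes, the ranges were 2304 to 8136 in Control, 497 to 740.1 in IleR, 251 to 1528 in LeuR and 397 to 509 CPM in ValR. Both lists separated all restricted males from all Control-fed males. A hindbrain score was formed as the mean log2 CPM of cerebellar and of brainstem genes minus that of forebrain genes. It ran from -8.03 to -5.08 in Control-fed males, 0.75 to 2.45 in IleR, -4.20 to 2.88 in LeuR and 2.74 to 3.80 in ValR. LeuR 21, at -4.20, lay closest to the Control-fed males. In females the score ran from -7.77 to 3.59, with high and low libraries in every diet. In males diet and regional content therefore cannot be told apart, and every male result below stands beside this difference. In bulk tissue, fewer cells of a type and less RNA per cell cannot be told apart either. Of markers of other cell types, 4 of 7 microglial genes were lower in ValR-fed and 2 of 7 in IleR-fed males, where 12.4% and 8.68% of all genes were lower, and none passed in LeuR. Of 7 astrocyte genes 2 were higher and 1 lower in ValR, 1 higher and 1 lower in IleR and 1 lower in LeuR, and of 7 pan-neuronal genes 1 was higher and 1 lower in each diet. None of 7 oligodendrocyte, 5 endothelial, 7 choroid plexus and 5 blood genes passed in any male diet. Even so, summed oligodendrocyte markers ran from 4573 to 9587 CPM in Control-fed males, from 10239 to 14972 in IleR, from 6456 to 18049 in LeuR and from 9529 to 16369 in ValR, with the highest median in LeuR (14782 against 7525 in Control), and summed blood markers reached 19630.2 CPM in a LeuR-fed male. What part these had in the results was not tested. The extraction text names liver, yet summed liver markers came to at most 4.75 CPM in any library, while 7 pan-neuronal genes summed to at least 3631 CPM.

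Per kilobase of annotated exon, Gabarapl1 was the most abundant of the 10 messages. It stood at 220.0 ± 40.1 CPM per kilobase (SD, n = 14) in males and 254 ± 45.3 (SD, n = 23) in females. Sqstm1 came next, at 119.8 ± 15.2 and 122 ± 14.0 CPM per kilobase, and its range over libraries did not meet that of Gabarapl1 in either sex. These 2 kept their places when the median length of the coding transcripts replaced the exon total. Map1lc3a (75.2 ± 8.45 CPM per kilobase in females), Gabarap (53.4 ± 2.71) and Gabarapl2 (52.1 ± 6.34) followed, and Gabarap and Gabarapl2 differed by less than their spread. Map1lc3b (24.2), Atg9a (23.9), Ulk2 (17.3), Ulk1 (15.5) and Becn1 (14.6 CPM per kilobase in females) were lowest by exon total. The 2 kinases overlapped in level, and so did Map1lc3b and Atg9a. With median transcript length, Becn1 and Map1lc3b came next after Sqstm1, so their place depends on the length used. Across the 23 female libraries Gabarapl1 varied most, with a coefficient of variation of 17.8%, and Gabarap least (5.08%).

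**Figure D1:**
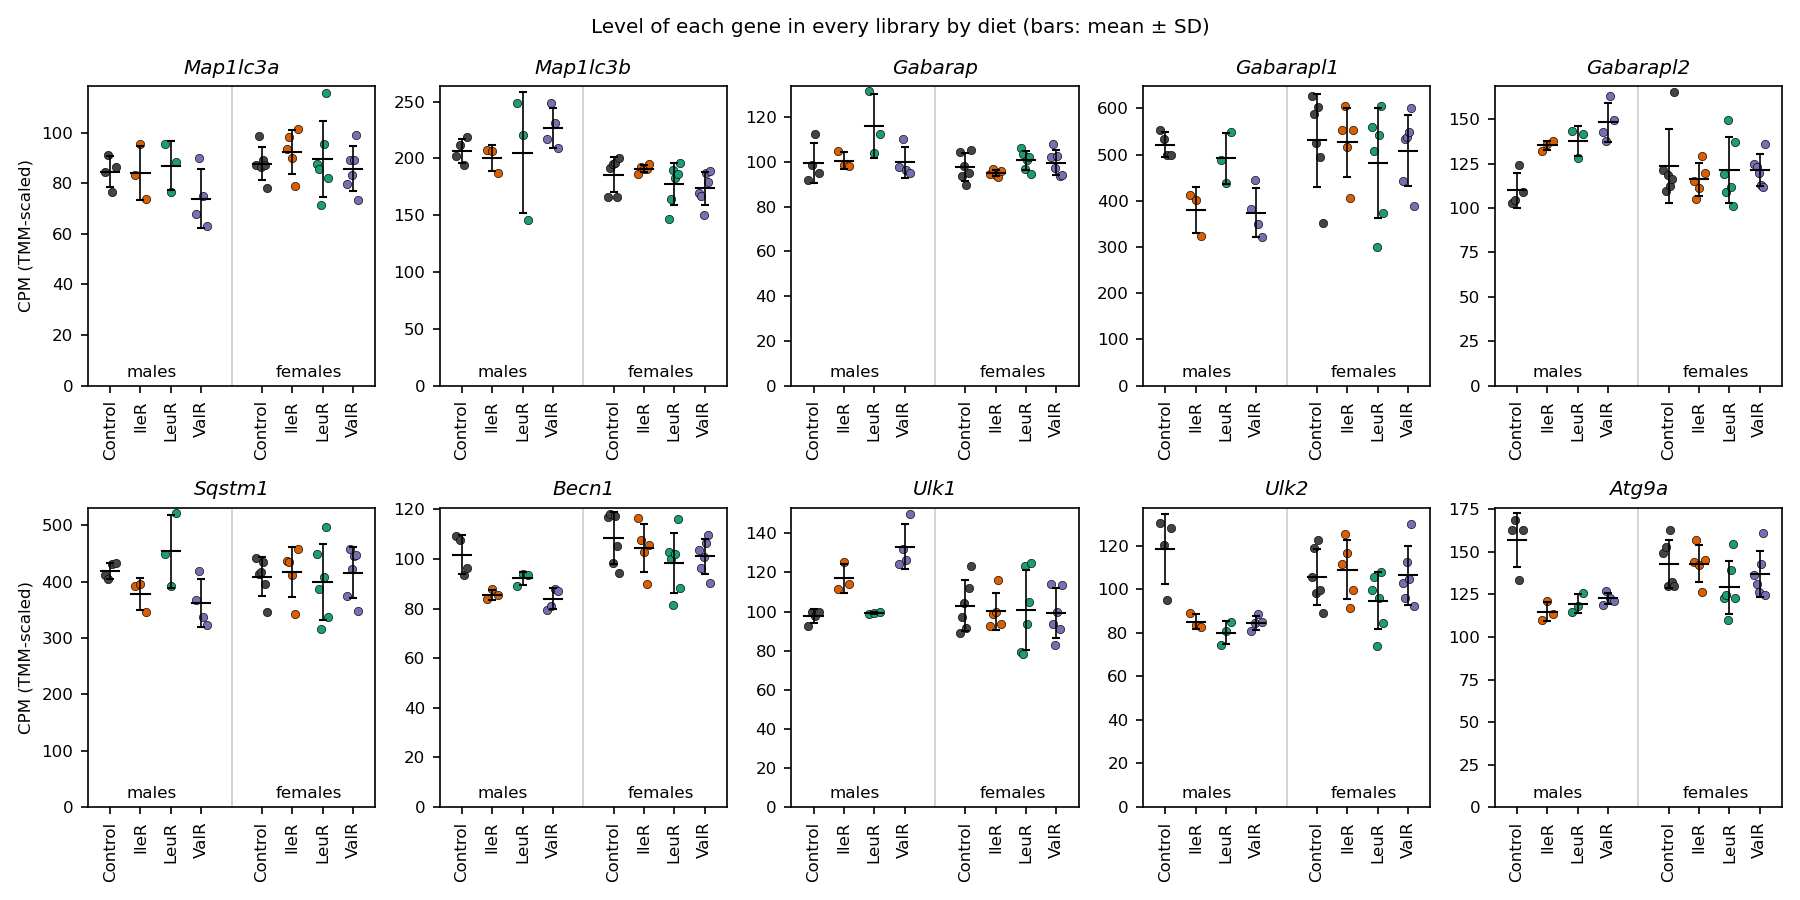
CPM of the 10 genes (y axis, linear from 0) in each of 37 libraries (points), by diet within males and females, with lines and bars for the mean and SD. In males, Ulk2, Atg9a, Gabarapl1 and Becn1 sit lower and Gabarapl2 and Ulk1 higher in ValR than in Control with no overlap, whereas every diet overlaps Control in females.

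Whether restricting 1 amino acid changed these messages was tested in each sex against Control with edgeR's quasi-likelihood test, adjusted over all genes tested by the Benjamini-Hochberg method. Differences are on the log2 scale with ± the standard error (SE). In IleR-fed males 6 of the 10 genes passed an adjusted p of 0.05, 2 higher and 4 lower, against 15.3% of all 22197 genes. The same 6 genes passed in ValR-fed males in the same directions, against 23.5% of all genes. In LeuR-fed males 3 genes passed, 1 higher and 2 lower, against 10.1%. The 3 comparisons share the 4 Control-fed males. Restricted and Control-fed males did not overlap in level for 7, 3 and 6 of the 10 genes in IleR, LeuR and ValR, against 29.3%, 17.7% and 26.4% of all genes. With only the 2 groups compared in the fit, 3 genes passed in IleR and none in LeuR. The median log2 fold change of the 10 was -0.097, 0.0049 and -0.20, beside 0.043, 0.053 and 0.032 over all genes. Without sign, the median change of the 10 was 0.25, 0.13 and 0.32, smaller than the 0.36, 0.35 and 0.38 over all genes. The filter admits genes of 1 count in a library, while the 10 had at least 821. The shares over all genes were not matched for count.

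Among the initiating kinases, Ulk2 fell and Ulk1 rose. Ulk2 stood at 130.3, 120.1, 94.97 and 128 CPM in Control-fed males. It stood at 88.9, 83.5 and 82.4 CPM in IleR, 74.5, 80.8 and 84.9 in LeuR and 80.7, 84.4, 88.5 and 85.1 in ValR. All 10 restricted males were below all 4 Control-fed males, among which Control 4 was lowest. Ulk2 changed by -0.48 ± 0.10 (adjusted p = 0.00744) in IleR-fed males, by -0.56 ± 0.10 (adjusted p = 0.00762) in LeuR and by -0.48 ± 0.094 (adjusted p = 0.00247) in ValR. Leaving out any 1 library kept the 3 Ulk2 calls, but the LeuR call was lost with only the 2 groups compared in the fit (adjusted p = 0.0847). Ulk1 stood at 92.5, 99.9993, 97.9 and 99.9 CPM in Control-fed males. It stood at 112, 125 and 114 CPM in IleR, 98.6, 99.3 and 99.6 in LeuR and 124, 132, 127 and 149.7 in ValR. IleR and ValR libraries lay wholly above Control, whereas the LeuR libraries lay inside the Control range. Ulk1 rose in ValR-fed males (log2 0.45 ± 0.074, adjusted p = 0.000863) and in IleR-fed males (log2 0.26 ± 0.080, adjusted p = 0.0421). In LeuR-fed males its difference was 0.023 ± 0.080 (adjusted p = 0.888). The IleR call was lost without Control 1, Control 3, Control 4, Control 5, ValR 7, ValR 10, IleR 13, IleR 14, IleR 17 or LeuR 20 (adjusted p up to 0.182, log2 0.21 to 0.28 over all libraries left out). It was also lost with DESeq2's size factors (adjusted p = 0.0509), with no filter on low counts (adjusted p = 0.0715) and with only the 2 groups compared (adjusted p = 0.064).

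The genes that act on the forming membrane, Becn1 and Atg9a, were lower. Atg9a stood at 163, 169, 133 and 163 CPM in Control-fed males. It stood at 110.0, 121 and 114 CPM in IleR, 115, 118 and 126 in LeuR and 119, 127, 123 and 121 in ValR. Again no restricted male reached a Control-fed male, and Control 4 was the lowest of these. Atg9a fell by 0.45 ± 0.088 on the log2 scale in IleR-fed males (SE, adjusted p = 0.0046), by 0.39 ± 0.088 in LeuR (adjusted p = 0.0163) and by 0.36 ± 0.081 in ValR (adjusted p = 0.00633). The LeuR call was lost without Control 3 or LeuR 19 (adjusted p up to 0.079, log2 -0.46 to -0.36), and with only the 2 groups compared (adjusted p = 0.105). Becn1 stood at 109, 108, 93.4 and 96.5 CPM in Control-fed males. It stood at 83.7, 87.7 and 85.4 CPM in IleR, 89.2, 93.8 and 93.5 in LeuR and 79.6, 80.9, 88.1 and 86.9 in ValR. IleR and ValR libraries lay below Control, and LeuR 20 and LeuR 21 reached the lowest Control library. Becn1 fell in ValR-fed males (log2 -0.28 ± 0.071, adjusted p = 0.0125) and in IleR-fed males (log2 -0.25 ± 0.077, adjusted p = 0.0453), and its difference in LeuR-fed males was -0.14 ± 0.077 (adjusted p = 0.26). The IleR call was lost without Control 1, Control 3, Control 5, ValR 7, ValR 10, IleR 13, IleR 14, IleR 17 or LeuR 19 (adjusted p up to 0.123, log2 -0.29 to -0.21). It was also lost with no filter (adjusted p = 0.107) and with only the 2 groups compared (adjusted p = 0.07).

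In the LC3 family, Gabarapl1 fell and Gabarapl2 rose while the other members did not pass the test. Gabarapl1 stood at 553, 535, 499.7 and 499.7 CPM in Control-fed males. It stood at 414, 402 and 323 CPM in IleR, 488, 439 and 549 in LeuR and 382, 446, 349 and 321 in ValR. The IleR and ValR libraries lay below Control, and LeuR 21, whose hindbrain score was nearest to Control, lay within the Control range. Gabarapl1 changed by -0.46 ± 0.13 (adjusted p = 0.0292) in IleR-fed males and by -0.48 ± 0.12 (adjusted p = 0.0105) in ValR, with -0.084 ± 0.13 (adjusted p = 0.716) in LeuR. The IleR call was lost without Control 1, Control 3, IleR 14 or IleR 17 (adjusted p up to 0.123, log2 -0.54 to -0.37). Gabarapl2 stood at 103, 105, 124 and 109 CPM in Control-fed males. It stood at 132, 136 and 138 CPM in IleR, 144, 128 and 142 in LeuR and 143, 138, 163 and 149.7 in ValR. Every restricted male was above every Control-fed male, LeuR 21 included. Gabarapl2 rose by 0.30 ± 0.088 (adjusted p = 0.0354) in IleR-fed males, by 0.32 ± 0.088 (adjusted p = 0.0343) in LeuR and by 0.43 ± 0.082 (adjusted p = 0.00206) in ValR. The IleR call was lost without Control 1, Control 3, Control 5, ValR 7, ValR 12, IleR 13, IleR 14 or IleR 17 (adjusted p up to 0.116, log2 0.27 to 0.36), and with no filter (adjusted p = 0.0577) or only the 2 groups compared (adjusted p = 0.0743). The LeuR call was lost without Control 1, Control 3, Control 5, ValR 7, IleR 14 or LeuR 19 (adjusted p up to 0.133, log2 0.29 to 0.39), and with no filter (adjusted p = 0.0503) or only the 2 groups compared (adjusted p = 0.146).

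The test was passed in no male comparison by Map1lc3a, Map1lc3b, Gabarap or Sqstm1. Map1lc3a, the LC3 form common in neurons, ranged from 63.0 to 95.7 CPM over all males, and the 95% confidence interval of its log2 difference was -0.28 to 0.27 in IleR, -0.24 to 0.32 in LeuR and -0.45 to 0.063 in ValR. For Map1lc3b, the form usually read as an autophagosome marker, the intervals were -0.35 to 0.26, -0.32 to 0.29 and -0.15 to 0.42. LeuR-fed males were widely spread in Map1lc3b, at 249, 220.3 and 146 CPM, with LeuR 21 lowest of all males. Gabarap was at 132, 104 and 113 CPM in LeuR-fed males and 92.0, 98.9, 112 and 95.3 in Control, a difference of 0.22 ± 0.098 (adjusted p = 0.164). Sqstm1 stood at 411, 404, 431 and 433 CPM in Control-fed males and at 393, 397 and 346 in IleR. It stood at 450.0, 392 and 522 CPM in LeuR and 368, 419.6, 337 and 324 in ValR. All 3 IleR libraries were below Control without passing the test (log2 -0.15 ± 0.12, adjusted p = 0.429), and in ValR the difference was -0.21 ± 0.11 (adjusted p = 0.174). Of the 12 intervals of these 4 genes, that of Gabarap in LeuR alone did not include 0 (0.010 to 0.43).

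**Figure D2:**
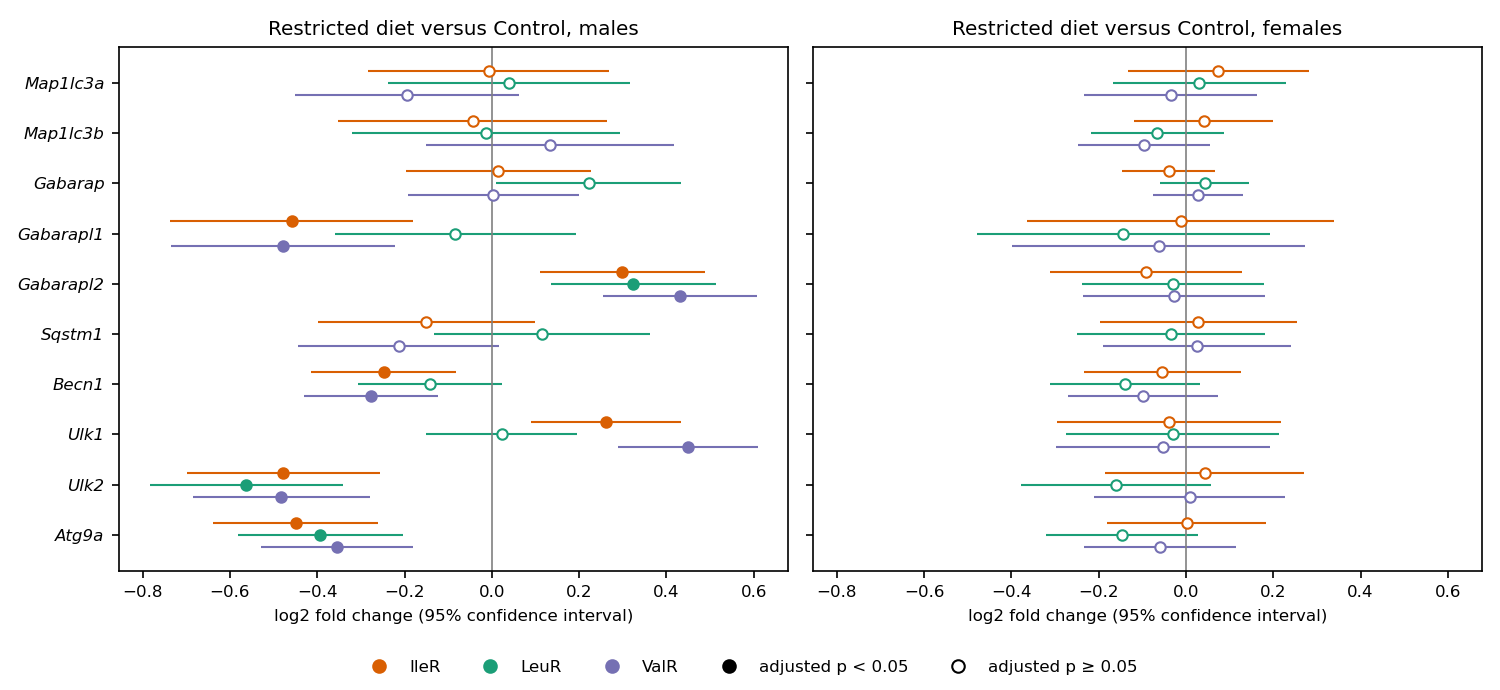
Log2 fold change of each gene (rows) against Control for the 3 restricted diets, with 95% confidence intervals, in males (left) and females (right) on 1 axis, where filled points have an adjusted p below 0.05. Filled points mark 6 genes in IleR-fed males, 3 in LeuR-fed males and 6 in ValR-fed males, and no gene in females.

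In females the diets did not separate these genes, and each of the 10 overlapped Control in every diet, where 0.251%, 0.216% and 0.128% of all genes did not overlap in IleR, LeuR and ValR. None of the 10 passed the test in any diet, and none of the 20344 genes tested did (0%). With no adjustment, 577, 820 and 777 genes (2.84%, 4.03% and 3.82%) were under 0.05 in IleR, LeuR and ValR, none of them among the 10. Of all genes, DESeq2 called 8 (0.0393%), 1 (0.00492%) and 0 and limma voom 1, 0 and 0, again none of the 10. With the hindbrain score as a covariate none of the 10 was under 0.05 even before adjustment, against 4.57%, 5.34% and 5.91% of all genes. Gabarapl1 had its lowest, median and highest values at 352, 556 and 626 CPM in Control-fed females and 389, 536 and 600.4 in ValR. Gabarapl2 had 109.5, 117 and 166 CPM in Control and 112, 122 and 136 in ValR. Both ranges overlapped widely, and the highest Gabarapl2 value was that of Control 30. Ulk2 had 89.2, 103 and 123 CPM in Control, 91.1, 111 and 125 in IleR, 73.9, 97.6 and 108 in LeuR and 92.4, 104 and 129.7 in ValR. Ulk1 had 89.0, 101 and 123 CPM in Control and 82.8, 96.7 and 114 in ValR. Within each diet these kinases spread over a wider range than lay between the diet medians. Atg9a in LeuR-fed females came nearest (log2 -0.15 ± 0.084, adjusted p = 0.968). For ValR the 95% confidence intervals were -0.40 to 0.27 for Gabarapl1, -0.24 to 0.18 for Gabarapl2, -0.30 to 0.19 for Ulk1 and -0.21 to 0.23 for Ulk2 (log2).

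Whether a diet acted differently in the sexes was tested by the interaction of diet and sex over all 37 libraries. For ValR 1 of the 10 genes passed, Ulk2, whose log2 difference was lower in males than in females by 0.51 ± 0.15 (SE, adjusted p = 0.0486), against 4.25% of 22465 genes. Before adjustment 4 of the 10 were under 0.05, against 26% of all genes. Gabarapl2 (log2 0.43 ± 0.14, adjusted p = 0.0649) and Ulk1 (log2 0.48 ± 0.16, adjusted p = 0.0689) differed in the other direction and missed the threshold. For IleR none of the 10 passed, against 0.0979% of all genes, with 3 under 0.05 before adjustment (19.1% of all genes) and 2 called by DESeq2. Atg9a came nearest (log2 -0.45 ± 0.13, adjusted p = 0.0825), then Ulk2 (log2 -0.52 ± 0.16, adjusted p = 0.0981). For LeuR none passed, against 0.00445% of all genes, with 2 under 0.05 before adjustment (13% of all genes) and 0 called by DESeq2. The ValR call of Ulk2 sat at the threshold: it was lost in 29 of the 37 fits that left out 1 library (adjusted p up to 0.116), and with limma voom, with DESeq2's size factors or without a filter. With the hindbrain score as a covariate, a fit added after the data had been seen, the Ulk2 interaction was log2 -0.043 ± 0.11, adjusted p = 0.975.

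Since hindbrain content varied within every female diet, its relation to the 10 genes could be read there apart from diet. With diet in the model, 8 of the 10 changed with the score, 2 upward and 6 downward, against 45.3% of all genes (51.4% before adjustment). Gabarapl1 had the steepest slope, -0.084 ± 0.0079 log2 units per unit of score (SE, adjusted p = 2.94e-08). Ulk1 (0.054 ± 0.0072, adjusted p = 2.79e-06) and Gabarapl2 (0.042 ± 0.0072, adjusted p = 5.53e-05) rose with the score. Ulk2 (-0.047 ± 0.0072), Sqstm1 (-0.045 ± 0.0077), Map1lc3a (-0.038 ± 0.0081), Becn1 (-0.037 ± 0.0057) and Atg9a (-0.031 ± 0.0072) fell, with adjusted p from 1.31e-05 to 0.0012. Map1lc3b (0.014 ± 0.0079, adjusted p = 0.151) and Gabarap (-0.0036 ± 0.0056, adjusted p = 0.642) did not pass. All 8 calls held in each fit that left out 1 female library. Over the same libraries 7 of 7 microglial markers fell with the score, and of 7 astrocyte markers 5 rose and 1 fell. Of 7 pan-neuronal markers 3 fell and 1 rose, 1 of 7 oligodendrocyte markers fell, and 1 of 7 choroid plexus markers rose. Over all genes 21.8% rose and 23.5% fell.

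As a correlation over the 23 female libraries, without diet, the picture had the same 8 genes. Gabarapl1 had Pearson r = -0.94 (permutation p = 1e-05, adjusted 2e-05) and rho = -0.83 (p = 1e-05, adjusted 3.33e-05), and r = -0.90 without the 2 libraries farthest from the median score. Ulk1 had Pearson r = 0.85 (permutation p = 1e-05, adjusted 2e-05) and rho = 0.85 (p = 1e-05, adjusted 3.33e-05), and r = 0.81 without those 2. Gabarapl2 had Pearson r = 0.79 (permutation p = 3e-05, adjusted 5e-05) and rho = 0.67 (p = 0.00069, adjusted 0.00138), and r = 0.71 without them. Ulk2 had Pearson r = -0.82 (permutation p = 1e-05, adjusted 2e-05) and rho = -0.79 (p = 1e-05, adjusted 3.33e-05), and r = -0.72 without them. Thus neither the kinases nor the GABARAP paralogues rested on the most extreme libraries. For Becn1, Sqstm1, Map1lc3a and Atg9a r was -0.84, -0.83, -0.72 and -0.71 and rho -0.76, -0.59, -0.60 and -0.60, with adjusted permutation p of at most 0.000287 for r and 0.0046 for rho. Without the 2 farthest libraries their r was -0.77, -0.74, -0.60 and -0.61. Map1lc3b had Pearson r = 0.31 (permutation p = 0.153, adjusted 0.17) and rho = 0.28 (p = 0.198, adjusted 0.22). Gabarap had Pearson r = -0.092 (permutation p = 0.678, adjusted 0.678) and rho = -0.0079 (p = 0.973, adjusted 0.973). The p-values are two-sided from 100000 permutations, of which 1e-05 is the smallest possible, and were adjusted over the 10 genes.

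**Figure D3:**
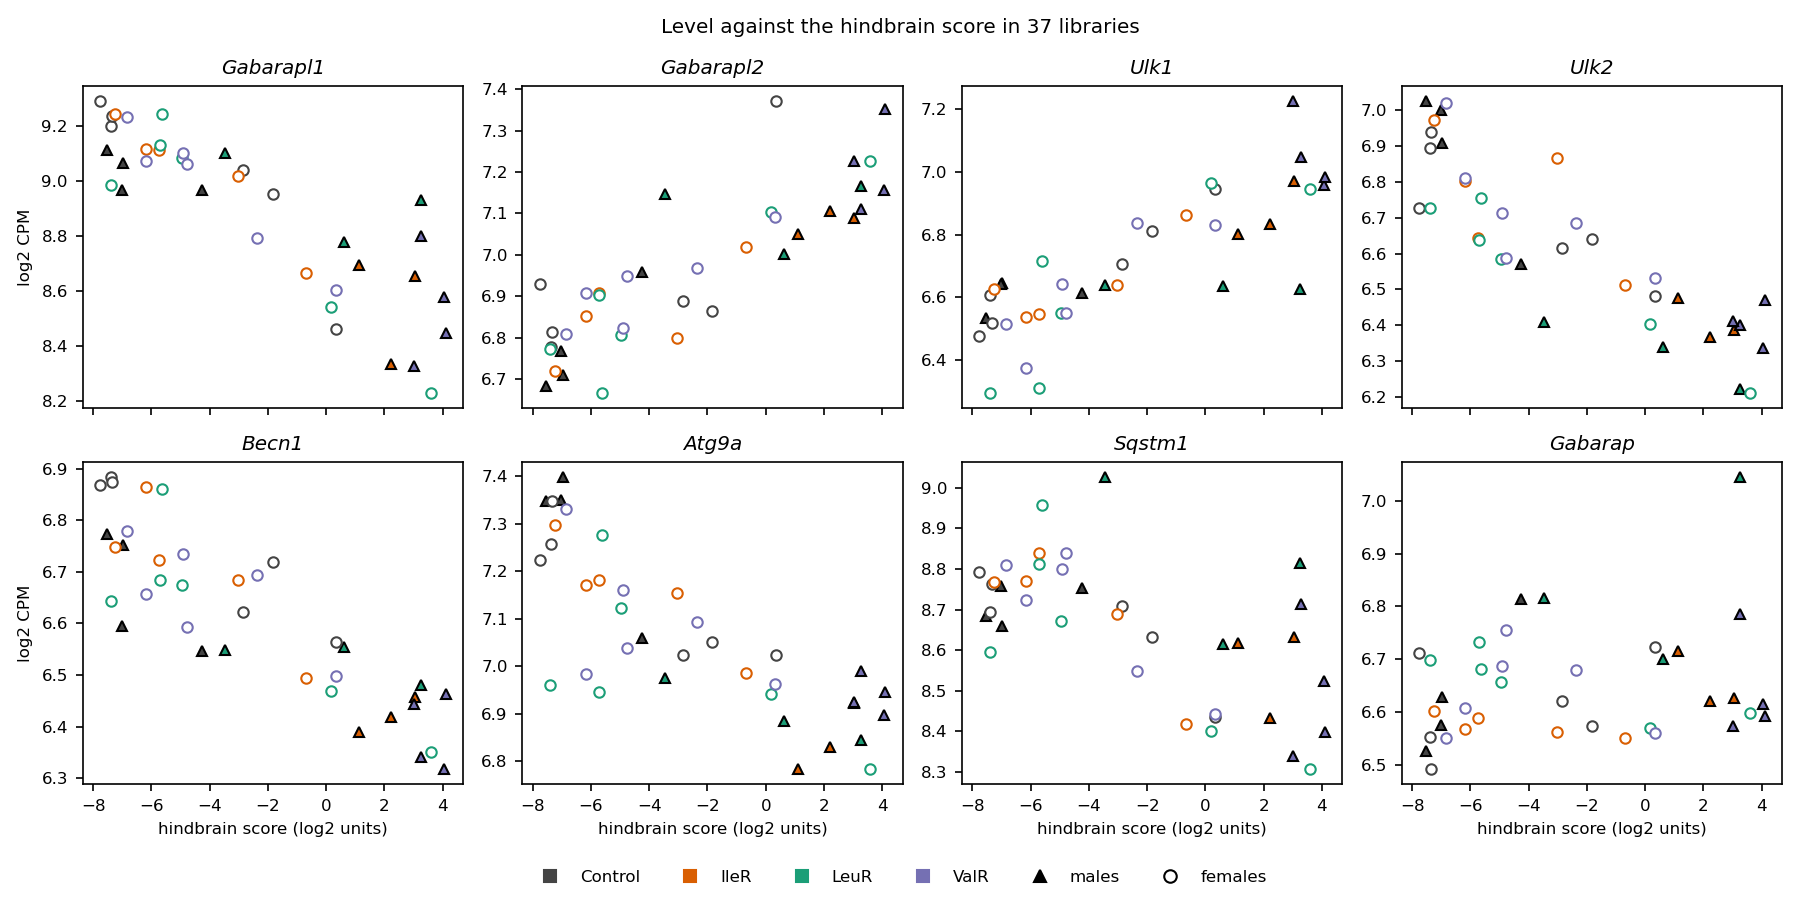
Log2 CPM of 8 of the genes (y axes) against the hindbrain score in log2 units (x axis) in all 37 libraries, with diet as colour, males as filled triangles and females as open circles; the score of both sexes uses the genes that passed the filter in females. Across the females Gabarapl1, Ulk2, Becn1, Atg9a and Sqstm1 run downward and Gabarapl2 and Ulk1 upward. The restricted males other than LeuR 21, whose score on these genes was -3.46, lie at the right, at 0.62 to 4.11. Of the females only LeuR 45 (3.59) reaches that range, with Control 30 next at 0.34.

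As a description, chosen after the values were seen, each female slope was multiplied by the difference in mean score between restricted and Control-fed males, computed on the score genes measured in both sexes. For ValR that difference was 10.1 units. The product for Ulk2 was -0.48 beside a measured -0.48 (log2), for Gabarapl2 0.42 beside 0.43, and for Atg9a -0.31 beside -0.36. For Ulk1 it was 0.55 beside 0.45, for Becn1 -0.37 beside -0.28, and for Gabarapl1 -0.84 beside -0.48. The first 3 genes lay within 1 SE of the product, and Gabarapl1 fell by less than its product. In IleR the product was -0.41 beside -0.48 for Ulk2, 0.36 beside 0.30 for Gabarapl2 and -0.32 beside -0.25 for Becn1, each within 2 SE of the measured value. It was -0.27 beside -0.45 for Atg9a, 0.46 beside 0.26 for Ulk1 and -0.72 beside -0.46 for Gabarapl1, each farther than 2 SE. In LeuR it was 0.28 beside 0.32 for Gabarapl2 and -0.24 beside -0.14 for Becn1, both within 2 SE. The LeuR products were -0.31 for Ulk2, -0.21 for Atg9a and -0.55 for Gabarapl1, beside measured values of -0.56, -0.39 and -0.084. Ulk2 and Atg9a were thus lower in LeuR-fed males than the product, and Gabarapl1 was higher. For Ulk1 in LeuR it was 0.36 beside a measured 0.023 ± 0.080 (SE). Among genes that passed in no male diet, Sqstm1 had -0.45 beside -0.21 in ValR and -0.38 beside -0.15 in IleR, and Map1lc3a -0.32 beside -0.0073 in IleR, each farther than 2 SE. For Sqstm1 and Map1lc3a the LeuR products were -0.30 and -0.25 beside measured values of 0.11 and 0.039, of the other sign. Gabarap in LeuR had -0.023 beside 0.22, also farther than 2 SE. Map1lc3b in every diet, Gabarap in IleR and ValR and Map1lc3a in ValR lay within 2 SE.

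With the score as a covariate in males, none of the 10 genes passed for any diet, and at most 0.0676% of all genes did, with edgeR and with limma voom alike for the 10. Before adjustment, 8.88% of all genes were under 0.05 for ValR in that fit, and 2 of the 10 were, Map1lc3b and Ulk1. For IleR and LeuR the shares were 8.15% and 8.33%, and Map1lc3b was the 1 gene of the 10. In ValR-fed males the Ulk1 estimate was log2 0.45 without and with the score. Its SE rose from 0.074 to 0.20 and the call was lost (adjusted p = 0.552). Ulk2 went to log2 0.0091 ± 0.22, adjusted p = 0.994, Atg9a to log2 -0.059 ± 0.20, adjusted p = 0.952 and Gabarapl1 to log2 -0.18 ± 0.31, adjusted p = 0.879. Gabarapl2 stood at log2 0.27 ± 0.21, adjusted p = 0.712. Map1lc3b went from log2 0.13 ± 0.13, adjusted p = 0.523 without the score to log2 -0.71 ± 0.28, adjusted p = 0.536 with it. Score and diet scarcely overlap in males, and the SE of Ulk2 rose from 0.094 without the score to 0.22 with it. The slope on the score within male diets passed for none of the 10, against 1.37% of all genes, with 2 under 0.05 before adjustment (17.2% of all genes) and 1 called by DESeq2. Ulk2 had -0.047 ± 0.020 log2 per unit (SE, adjusted p = 0.237), from -0.095 to -0.028 with 1 library left out. Gabarapl1 had -0.029 ± 0.028 (adjusted p = 0.665) and Ulk1 -0.00028 ± 0.018 (adjusted p = 0.997). The male score holds more genes than the female score, and the difference between male and female slopes was not tested.

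A ratio of 2 genes within a library does not depend on how libraries are scaled. The ratio of Gabarapl1 to Gabarapl2 counts was 5.38, 5.11, 4.02 and 4.59 in Control-fed males. It was 3.12, 2.96 and 2.34 in IleR, 3.40, 3.43 and 3.88 in LeuR and 2.68, 3.23, 2.14 and 2.14 in ValR. Every restricted male was below every Control-fed male. The ratio of Ulk1 to Ulk2 was 0.710, 0.833, 1.03 and 0.781 in Control-fed males. It was 1.25, 1.501 and 1.38 in IleR, 1.32, 1.23 and 1.17 in LeuR and 1.54, 1.57, 1.43 and 1.76 in ValR. Here every restricted male was above Control, and counts of Ulk2 exceeded those of Ulk1 in 3 of 4 Control-fed males and in no restricted male. The genes differ in length, so these counts do not tell which message was the more abundant. In females the Gabarapl1 to Gabarapl2 ratio ran from 2.01 to 5.97 and the Ulk1 to Ulk2 ratio from 0.704 to 1.67, and the diets overlapped. The lowest female Gabarapl1 to Gabarapl2 ratio and the highest Ulk1 to Ulk2 ratio were both in LeuR 45, the female with the highest hindbrain score. Per kilobase of exon, Gabarapl1 made up 56.4% ± 1.80 (SD, n = 4) of the 5 LC3 family messages in Control-fed males and 46.7% ± 2.51 (SD, n = 4) in ValR. The share of Gabarapl2 was 10.3% ± 1.07 and 16.2% ± 2.30. These ratios were chosen after the single genes had been seen, and are given with no test.

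**Figure D4:**
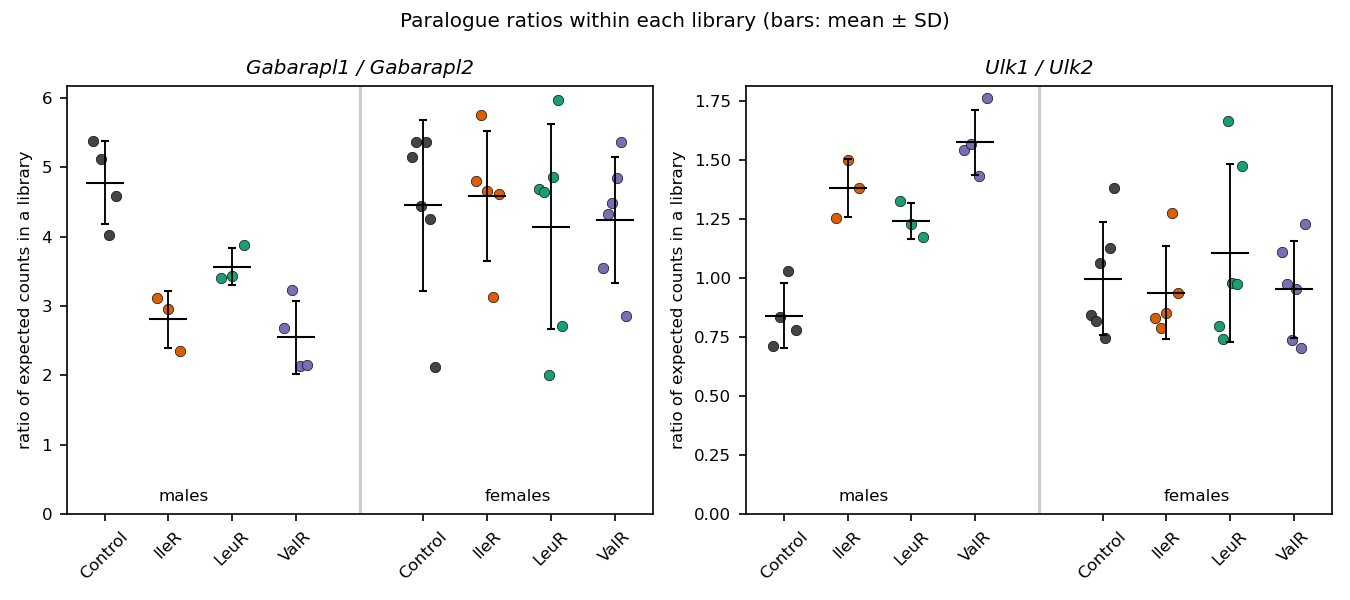
Ratio of expected counts of Gabarapl1 to Gabarapl2 (left) and of Ulk1 to Ulk2 (right) in each library (points), by diet and sex, with mean and SD; both axes start at 0. Restricted males sit below Control on the left and above it on the right without overlap, and the range of females in every diet crosses the gap between these male groups.

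Among themselves over the 23 female libraries, 6 of the genes moved together, Gabarapl2 moved against all 6 and Ulk1 against 4. Of 45 pairs, 17 correlated positively and 11 negatively at an adjusted permutation p under 0.05, and 17 did not pass. Gabarapl1 and Sqstm1 were the closest pair (r = 0.93 and rho = 0.82), followed by Gabarapl1 and Becn1 (r = 0.88 and rho = 0.87), both at the smallest permutation p of 1e-05 for r (adjusted 5e-05). Without the 2 libraries farthest from the median of Gabarapl1 r was 0.90 and 0.85. All 15 pairs among Gabarapl1, Sqstm1, Becn1, Ulk2, Atg9a and Map1lc3a were positive and passed by r. The paralogues ran against each other: Gabarapl1 and Gabarapl2 had r = -0.87 and rho = -0.66 (adjusted permutation p = 5e-05 and 0.00264), and Ulk1 and Ulk2 had r = -0.59 and rho = -0.60 (adjusted permutation p = 0.00588 and 0.00613). Their r was -0.79 and -0.57 without the 2 farthest libraries. Ulk1 did not pass against Atg9a (r = -0.30 and rho = -0.29, adjusted permutation p = 0.236 and 0.261) or Map1lc3a (r = -0.43 and rho = -0.44, adjusted permutation p = 0.0602 and 0.0574). The LC3 pair did not move together (r = 0.066 and rho = -0.012, adjusted permutation p = 0.819 and 0.958), and Gabarap passed only with Map1lc3b, negatively by r (r = -0.46 and rho = -0.42, adjusted permutation p = 0.0389 and 0.079). These libraries share the spread in regional content described above.

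**Figure D5:**
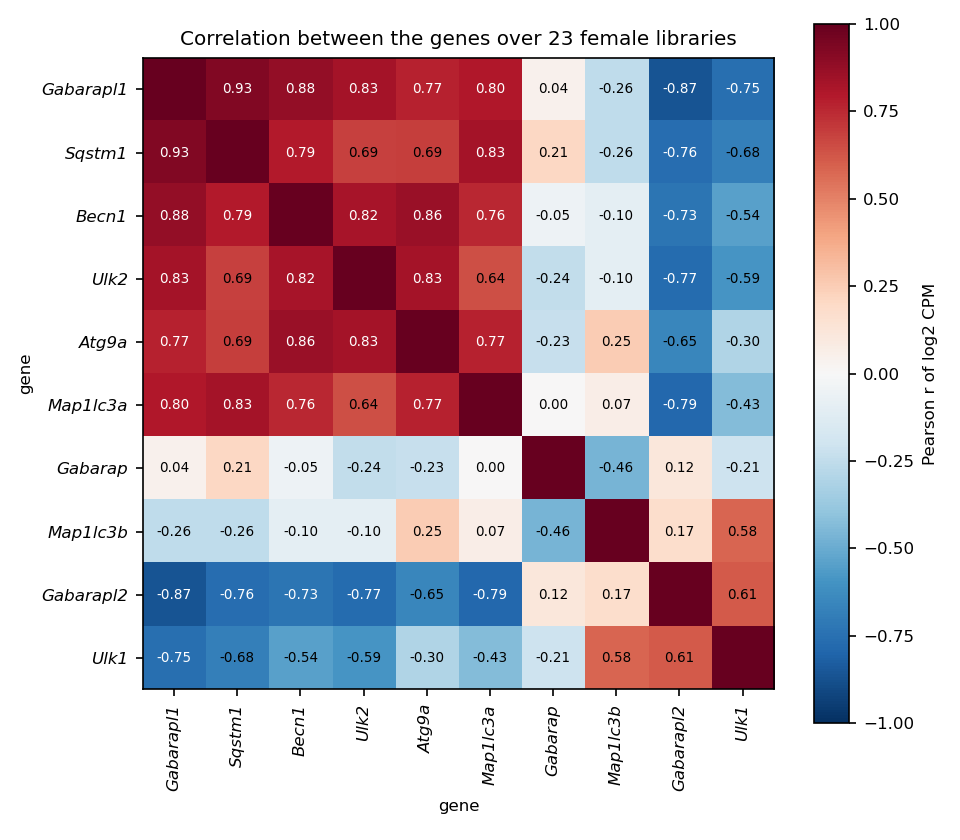
Pearson r of log2 CPM between each 2 of the 10 genes over 23 female libraries, as colour and number on a scale from -1 to 1. Gabarapl1, Sqstm1, Becn1, Ulk2, Atg9a and Map1lc3a form a positive block, Gabarapl2 runs against all 6 and Ulk1 against 4 of them, with weaker values for Atg9a and Map1lc3a (r = -0.30 and -0.43), and Gabarap and Map1lc3b stand mostly apart.

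Outside the 10, the gene whose pattern was most like each was sought among 8989 genes of mean log2 CPM of at least 4 over the 23 female libraries. For Gabarapl1 it was Ctnna2 (r = 0.98, rho = 0.95), for Atg9a Mat2b (r = 0.97, rho = 0.94), and for Sqstm1 Eri3 (r = 0.97, rho = 0.91). Ulk1 ran with Tmem145 (r = 0.96), Ulk2 with Ppp3cb, a calcineurin catalytic subunit (r = 0.94), Becn1 with Ensa (r = 0.94), Map1lc3a with Mapre3 (r = 0.92), Map1lc3b with Hapln4 (r = 0.91) and Gabarapl2 with Rpa1 (r = 0.91). Each is the highest of many values and is given with no p.

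Beyond the 10, 62 further autophagy and lysosome genes were read in the same fits, in 8 lists. In ValR-fed males 10 were higher and 7 lower, in IleR 5 and 5, and in LeuR 4 and 2. Over all genes 11.1% were higher and 12.4% lower in ValR, 6.63% and 8.68% in IleR, and 3.81% and 6.33% in LeuR. Their median log2 fold change was 0.066, 0.030 and -0.062, beside 0.032, 0.043 and 0.053 over all genes. In each list and each male diet most genes did not pass.

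Of the 3 partners of the ULK kinases, Atg101, which stabilises Atg13, was lower in IleR (log2 -0.60 ± 0.12, adjusted p = 0.00568) and ValR (log2 -0.47 ± 0.11, adjusted p = 0.00863), and the other 2 did not pass. Of 7 genes of the class III PI3 kinase complex, in which Beclin 1 sits, none passed in IleR or ValR, and Uvrag was lower in LeuR (log2 -0.39 ± 0.11, adjusted p = 0.0347). Among 8 genes of lipid transfer and membrane growth, the scramblase Tmem41b was higher in all 3 diets (log2 0.41 ± 0.087, adjusted p = 0.00436 in ValR, log2 0.33 ± 0.094, adjusted p = 0.0288 in IleR and log2 0.33 ± 0.094, adjusted p = 0.0429 in LeuR). In the same list the lipid transfer protein gene Atg2b was higher in ValR (log2 0.41 ± 0.11, adjusted p = 0.0162), and Wdr45b was lower in IleR and ValR (log2 -0.24 ± 0.079, adjusted p = 0.0456 in ValR). Of 10 genes that process and conjugate LC3, the proteases Atg4d (log2 0.56 ± 0.18, adjusted p = 0.0397) and Atg4c (log2 -0.37 ± 0.10, adjusted p = 0.0167) went in opposite directions in ValR, and none passed in IleR or LeuR. Of 9 receptors, optineurin (Optn) was higher in all 3 diets (log2 0.74 ± 0.14, adjusted p = 0.0045 in IleR, log2 0.89 ± 0.14, adjusted p = 0.00503 in LeuR and log2 0.85 ± 0.14, adjusted p = 0.000716 in ValR). The mitochondrial receptor Fundc1 was higher in all 3 as well (log2 0.51 ± 0.13, adjusted p = 0.0106 in ValR), while Calcoco1 was lower in IleR and ValR (log2 -0.26 ± 0.082, adjusted p = 0.0346 in ValR). Of 7 fusion genes, Vamp8 (log2 0.81 ± 0.26, adjusted p = 0.036) and Tecpr1 (log2 0.64 ± 0.17, adjusted p = 0.0134) passed in ValR, both higher, and no fusion gene passed in IleR or LeuR.

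Among 10 lysosomal genes, the proteases Ctsd (log2 0.82 ± 0.24, adjusted p = 0.0354) and Ctsl (log2 0.40 ± 0.099, adjusted p = 0.016) were higher in IleR, and the proton pump subunit Atp6v0d1 was lower in IleR (log2 -0.45 ± 0.091, adjusted p = 0.00552) and ValR (log2 -0.35 ± 0.083, adjusted p = 0.00859). In ValR the pump subunit Atp6v1h was lower too (log2 -0.31 ± 0.092, adjusted p = 0.0271), and Mcoln1, a lysosomal calcium channel, was higher (log2 0.26 ± 0.084, adjusted p = 0.0399). Among 8 upstream regulators the catalytic subunits of AMPK moved apart. Prkaa2 was lower in IleR (log2 -0.57 ± 0.13, adjusted p = 0.00899), LeuR (log2 -0.90 ± 0.13, adjusted p = 0.00359) and ValR (log2 -0.63 ± 0.12, adjusted p = 0.00189), and Prkaa1 was higher in LeuR (log2 0.60 ± 0.15, adjusted p = 0.0265) and ValR (log2 0.42 ± 0.14, adjusted p = 0.0487). Tfeb, a transcription factor for lysosomal genes, was higher in ValR (log2 0.70 ± 0.21, adjusted p = 0.0267). In the interaction model for ValR 1 of the 62 passed, Tmem41b, whose difference was higher in males than in females (log2 0.39 ± 0.11, adjusted p = 0.0471), against 4.25% of all genes. That call too sat at the threshold: it was lost with limma voom, with no filter, with the score as a covariate and without some single libraries. In females none of the 62 passed in any diet, whereas 18 rose and 18 fell with the hindbrain score, against 21.8% and 23.5% of all genes. The female slope of Optn was log2 0.060 ± 0.012, adjusted p = 0.000391, that of Tfeb log2 0.10 ± 0.019, adjusted p = 0.000137 and that of Prkaa2 log2 -0.044 ± 0.016, adjusted p = 0.0293, while Prkaa1 did not pass (log2 0.019 ± 0.011, adjusted p = 0.171). Of these 62 genes, none passed for any diet in males with the score as a covariate. Among the male calls of these genes, the sign turned in that fit for Tfeb (log2 -0.67), Vamp8 (-0.96), Prkaa1 (-0.37), Atg4d (-0.035), Fundc1 (-0.014) and Wdr45b (0.022) in ValR and for Ctsd (-0.39) in IleR. Of the 33 male calls among the 62 genes, 20 were lost in at least 1 of the 14 fits that left out 1 library. In ValR the calls of Prkaa1, Wdr45b, Mcoln1, Vamp8 and Atg4d were lost in 10, 9, 8, 7 and 7 of these fits. Those of Tfeb, Calcoco1, Atp6v1h, Atg2b and Atg4c were lost in 5, 5, 5, 2 and 1. In IleR those of Ctsd, Wdr45b, Calcoco1, Tmem41b, Fundc1 and Ctsl were lost in 8, 7, 7, 5, 5 and 3. In LeuR those of Tmem41b, Uvrag, Prkaa1 and Fundc1 were lost in 10, 6, 5 and 3.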

How the data were processed

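RNA from brains of 3xTg mice was sequenced by the authors, whose submitters' processing notes name GRCm38 as the build and R 3.4.3, edgeR and limma as tools. Per the study's methods, samples judged to be outliers on a principal component plot were dropped, and counts were estimated per Ensembl gene on GRCm38, while the aligner is not given in the sources used here. The deposited values are expected counts per gene and library, not normalized, in 1 table for each sex. The labels call the tissue brain although the extraction text names liver, and they describe the RNA selection in 2 ways. The deposited tables of the authors' own log2 fold changes and p-values were not used.

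Expected counts were rounded to whole numbers. In each sex a gene was tested if some diet group had 1 count or more in all of its libraries, and data were scaled by TMM and fitted with diet as the only factor (edgeR 4.0.16 in R 4.3.3, quasi-likelihood test, Benjamini-Hochberg over all genes tested, threshold 0.05). The interaction model held sex, diet and their product over all 37 libraries. CPM values use TMM library sizes, and log2 CPM a prior count of 2. The hindbrain score used 41 genes in males and the 34 that passed the filter in females, where 5 of 12 brainstem genes did, and its slope was fitted with diet in the model. Depth ran from 10672600 to 25722300 expected counts, and library pairs within groups differed by more than sampling noise (73 pairs). Gene positions and lengths came from GENCODE M21, which lacked 3333 of the 55416 identifiers, and promoters from RefSeq. Alternatives were DESeq2 1.42.0, its size factors, limma 3.58.1 with voom, other filters, only the 2 groups compared, the score as a covariate, and each library left out. The 10 genes, the further lists and the markers were chosen with earlier results of these data known. Named besides the 10 were, of each list and comparison, the called genes of largest change, at most 2 in each direction, and for each of the 10 the most similar gene, which for Gabarap is not reported here.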

Additional observations from a re-analysis of the deposited data

Results flagged for a closer look

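A library that stood apart was looked for in 60 groups, each gene in each diet group of 4 to 6 libraries, and chance alone marks about 1 group in 20. Atg9a was 133 CPM in Control 4, the lowest of 4 Control-fed males, with the others at 163 to 169. Gabarapl2 was 166 CPM in Control 30, the highest of 6 Control-fed females, with the others at 109.5 to 122. Ulk1 was 116 CPM in IleR 41, the highest of 5 IleR-fed females, with the others at 92.7 to 99.6. Each of these 3 libraries had the highest hindbrain score of its group, at -5.08, 0.34 and -0.68. The effect of ValR on Ulk2 differed between males and females by -0.51 on the log2 scale, by a test of the difference itself (adjusted p = 0.0486). That call was lost in 29 of the 37 fits that left out 1 library. It was also lost with limma voom, with DESeq2's size factors, with no filter and with the hindbrain score as a covariate. Diet and regional content cannot be told apart in the males.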

How the results depend on the processing

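In IleR-fed males 6 of the 10 genes were called, in LeuR-fed 3 and in ValR-fed 6. The IleR count was 3 with no filter on low counts and 3 with only the 2 groups compared in the fit. The LeuR count was 0 with only the 2 groups compared. With the hindbrain score as a covariate the count was 0 in all 3 diets, with edgeR and, as an alternative added after seeing the data, with limma voom. Leaving out 1 male library at a time gave 2 to 6 called in IleR, 1 to 3 in LeuR and 6 in ValR. In IleR 2 or 3 genes passed without Control 1, Control 3, Control 5, ValR 7, IleR 13, IleR 14 or IleR 17, and in LeuR 1 passed without Control 3 or LeuR 19. Without LeuR 21, whose score was nearest to Control, 3 passed in LeuR. In females the count was 0 for each diet under every alternative.

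The sex difference had 0 calls for IleR, 2 with DESeq2 and 0 to 2 with 1 library left out. For ValR it had 1 call, against 0 with DESeq2's size factors, with limma voom, with no filter or with the score as a covariate (added after seeing the data), 2 with filterByExpr, 3 with DESeq2 and 0 to 3 with 1 library left out. The slope on the score in males had 0 calls, 1 with DESeq2, 6 with no diet term and 0 to 1 with 1 library left out, the 1 being without Control 4. In females it had 8 calls under every alternative. Of the score correlations 8 passed, and 8 also with diet means taken out or with the forebrain list alone, and of the pairs 28 passed, and 28 with diet means taken out.

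With the score as a covariate the sign of some results called in the main fit turned, in edgeR and in limma voom. In IleR this was Ctsd (-0.39 and -0.39, log2). In ValR these were Ulk2 (0.0091 and 0.021), Atg4d (-0.035 and -0.034), Fundc1 (-0.014 and -0.0023), Prkaa1 (-0.37 and -0.37), Tfeb (-0.67 and -0.59), Vamp8 (-0.96 and -0.89) and Wdr45b (0.022 and 0.020). Of the 10 genes, uncalled results turned too in edgeR. In ValR Map1lc3b went from 0.13 to -0.71, Sqstm1 from -0.21 to 0.034 and Gabarap from 0.0035 to -0.33. In IleR Sqstm1 went from -0.15 to 0.057 and Gabarap from 0.014 to -0.27. In LeuR Gabarapl1 went from -0.084 to 0.10. With no diet term the male slope turned for Ulk1 (0.035), Atg4c (-0.032) and Tecpr1 (0.050). The cause of these changes was not tested. No paired analysis was possible because each library carries its own number and no number recurs between groups. With 3 or 4 male libraries a diet, changes of the size of the intervals given for the uncalled genes cannot be told from none.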

Other observations

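Over the 23 female libraries, with diet in the model, 18 of the 62 further autophagy and lysosome genes rose and 18 fell with the hindbrain score, where 21.8% of all genes rose and 23.5% fell. Of 7 genes of the class III PI3 kinase complex, 4 fell and none rose, led by Pik3r4, its regulatory kinase-like subunit (-0.031 ± 0.0080, adjusted p = 0.00271, in log2 units per unit of score). Nrbf2 of the same complex fell by less (-0.026 ± 0.0060, adjusted p = 0.0012), and Becn1 itself fell (-0.037 ± 0.0057, adjusted p = 1.77e-05). Of 10 genes that process and conjugate LC3, 4 fell and 1 rose. That 1 was Atg4d (0.098 ± 0.012, adjusted p = 5.02e-07), while its paralogue Atg4c (-0.054 ± 0.010, adjusted p = 0.00018) and the ubiquitin-like conjugator Atg12 (-0.035 ± 0.0070, adjusted p = 0.00024) fell. Of 7 fusion genes 3 rose and 1 fell, with Vamp8, a SNARE, steepest (0.14 ± 0.023, adjusted p = 3.19e-05), then Tecpr1 (0.085 ± 0.011, adjusted p = 2.43e-06), and with Rab7 falling (-0.019 ± 0.0053, adjusted p = 0.00597).

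Among 8 genes of lipid transfer and membrane growth 4 rose and 2 fell, with Atg2b (0.069 ± 0.010, adjusted p = 9.39e-06) and Wipi1 (0.028 ± 0.010, adjusted p = 0.0266) steepest upward and Vmp1 (-0.037 ± 0.0074, adjusted p = 0.000301) and Wdr45b (-0.027 ± 0.0058, adjusted p = 0.000703) downward. Of 9 receptors 4 rose, among them the large adaptor Wdfy3 (0.071 ± 0.0098, adjusted p = 4.11e-06), and 3 fell, among them Calcoco1 (-0.044 ± 0.0071, adjusted p = 2.7e-05) and Bnip3 (-0.032 ± 0.010, adjusted p = 0.0151). Of 10 lysosomal genes 4 rose, among them Ctsl (0.037 ± 0.0060, adjusted p = 3.06e-05) and Mcoln1 (0.031 ± 0.011, adjusted p = 0.0256), and 2 proton pump subunits fell, Atp6v1h (-0.052 ± 0.0074, adjusted p = 5.81e-06) and Atp6v0d1 (-0.045 ± 0.0070, adjusted p = 1.8e-05). Of 8 upstream regulators the transcription factor genes Tfeb and Foxo3 (0.089 ± 0.014, adjusted p = 1.35e-05) rose and Prkaa2 fell. Atg101 fell among 3 ULK partners (-0.061 ± 0.011, adjusted p = 0.000126). Over all genes, 45.3% changed with the score.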
